A study of Mus musculus with 3 samples.

Results

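Described here are 6 Fc receptor genes of the mouse, Fcgr1, Fcgr3, Fcgr4, Fcer1g, Fcgr2b and Fcgrt, in immune cells of melanoma grafts from mice of 3 ages. They were taken by symbol from the 55401 genes listed in the count matrices, where all 6 occur, and no measured value chose them. Fc receptors bind the constant part of antibodies and so let a cell react to what an antibody has marked. Fcgr1, Fcgr3 and Fcgr4 encode the activating receptors for immunoglobulin G (FcγRI, FcγRIII and FcγRIV), which signal through the shared γ chain encoded by Fcer1g, a small membrane protein whose cytoplasmic motif recruits the kinase Syk. Fcgr2b encodes the inhibitory receptor FcγRIIB, which recruits the phosphatase SHIP1 and raises the threshold for activation, and Fcgrt encodes the heavy chain of FcRn, an intracellular receptor that pairs with β2-microglobulin and returns immunoglobulin G to the cell surface. In tumours the receptors are best known from macrophages and NK cells, where they mediate phagocytosis and killing of antibody-coated cells.

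Tumours were grown from YUMM1.7, a mouse melanoma line, with 500000 cells injected under the skin, and were taken 18 days later from mice of 4, 12 and 20 months, 7 mice per age. Live leukocytes were sorted with an antibody to CD45.2 after an Fc block with the antibody 2.4G2, which binds the proteins of Fcgr2b and Fcgr3, and a PIP-seq kit that captures RNA 3′ ends gave the libraries. The same graft and handling are described for all 3 groups, and strain and sex are not given in the sources used here. The labels list 1 library per age without saying whether cells of the 7 mice were pooled, so every comparison of ages is between single libraries, has no replicate check and carries no p-value. The libraries held 14393 to 14684 cells each, with totals of 110371225 to 127850782 counts and medians of 6789 to 7411 counts per cell, and any pair of libraries shared 2 to 4 cell barcodes. The labels name the cell type as melanoma. In the data, Ptprc, which encodes CD45, had a count in 94.1% to 95.3% of retained cells, while the melanocyte genes Mlana and Pmel had one in at most 0.116% and 1.11%.

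Cells were grouped into classes by clustering without the 6 genes, and a level is given in CPM, the counts of a gene for every 1000000 counts of its class in 1 library. Bounds in brackets mark the 95% range left by counting error and say nothing of the spread between mice. The macrophage-like class held 2803, 2983 and 3602 cells at 4, 12 and 20 months, with C1qa, a complement gene of macrophages, at 3083 to 4212 CPM against 153 to 263 CPM in T-like cells. The monocyte-like class was 1 cluster led by F13a1 and Hp with 1096, 641 and 658 cells. A further cluster of 1340, 546 and 799 cells scored highest for monocyte markers, with Ly6c2 at 5155 to 6330 CPM, but had Acod1 and Slpi, both on the list of neutrophil markers, among its 10 leading genes. It was left unnamed and is called the Acod1-led cluster for short, although Tgm2 and AA467197 came first among its leading genes. Its S100a8, a defining neutrophil gene, lay at 7.26 to 35.5 CPM. In the monocyte-like class S100a8 was 19.9, 604.5 and 1088 CPM at 4, 12 and 20 months, and S100a9 was 7.14, 284 and 750 CPM. The content of that class thus differed between libraries, and the part of this in its age ratios was not tested. The dendritic cell-like class held 707, 660 and 740 cells, with Flt3, a growth factor receptor of dendritic cells, at 105 to 130.4 CPM against at most 8.14 CPM in the other 5 classes. The NK-like class held 2248, 2068 and 1590 cells with the NK receptor gene Ncr1 at 662 to 747 CPM, and the T-like class held 4872, 6408 and 5983 cells with the T cell receptor subunit gene Cd3e at 469 to 546 CPM. In droplet-type data, RNA free in the suspension adds counts to every cell, so the level in T-like cells is printed beside that in myeloid cells.

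On GRCm38 with GENCODE M21, 4 of the 6 genes lie within 275.7 kb of chromosome 1. From low to high coordinate these are Fcgr2b (chr1:170958617-170976547, minus strand), Fcgr4 (chr1:171018920-171029761, plus strand), Fcgr3 (chr1:171051174-171064935, minus strand) and Fcer1g (chr1:171229572-171234365, minus strand). Fcgr1 lies at chr3:96282909-96293969 and Fcgrt at chr7:45092990-45103851, both on the minus strand. An antisense gene, Gm38204, shares 155 exonic bases with Fcgr2b and had 0.819% as many counts. Another, Gm45669, lies across Fcgrt with 0 exonic bases shared and had 9.37% as many counts. Whether strand was used in counting is not given in the sources used here, so reads of these pairs cannot be told apart.

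The 250 bases before the RefSeq start are shown for 3 of the 6 genes (GRCm38.p6, 5′ to 3′ on the gene's strand), because Fcgr1 and Fcgr4 had their highest levels in different myeloid sub-clusters and Fcgrt was spread unlike the other members. The Fcgr1 stretch is chr3:96293970-96294219 (minus strand), that of Fcgr4 is chr1:171018676-171018925 (plus strand; its last 6 bases lie inside the GENCODE gene) and that of Fcgrt is chr7:45103823-45104072 (minus strand; the GENCODE gene starts inside it). Capitals mark matches, on either strand, to the PU.1 core GAGGAA, the interferon-γ-type STAT motif TTCNNNGAA, the interferon response motif (GAAA, 2 bases of any kind, GAAA) and the TCF/LEF core CTTTGA.
Fcgr1: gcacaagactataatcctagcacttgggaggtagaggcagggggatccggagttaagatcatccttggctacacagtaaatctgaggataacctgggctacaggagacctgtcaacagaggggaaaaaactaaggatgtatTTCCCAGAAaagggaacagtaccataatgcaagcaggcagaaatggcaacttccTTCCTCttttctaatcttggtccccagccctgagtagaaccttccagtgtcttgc
Fcgr4: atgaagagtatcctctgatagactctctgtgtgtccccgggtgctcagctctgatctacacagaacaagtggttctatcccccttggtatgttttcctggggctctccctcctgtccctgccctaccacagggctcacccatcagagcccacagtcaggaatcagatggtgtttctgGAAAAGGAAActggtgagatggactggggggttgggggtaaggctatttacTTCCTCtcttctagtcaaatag
Fcgrt: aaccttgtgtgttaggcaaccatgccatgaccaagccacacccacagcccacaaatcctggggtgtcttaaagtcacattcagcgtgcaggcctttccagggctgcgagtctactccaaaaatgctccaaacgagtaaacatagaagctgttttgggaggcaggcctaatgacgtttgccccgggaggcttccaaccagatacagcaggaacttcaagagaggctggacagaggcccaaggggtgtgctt
The Fcgr1 stretch held the STAT motif as TTCCCAGAA, starting 109 bases before the gene start, and 1 PU.1 core starting 55 bases before it. In the Fcgr4 stretch the interferon response motif was matched as GAAAAGGAAA, 73 bases before the start, and 1 PU.1 core 22 bases before it. The stretches of the 2 annotated starts of Fcgr3, not printed, overlap and share 1 and the same PU.1 core. The stretches of Fcgr2b, Fcer1g and Fcgrt held none of the 4 motifs. Of 32851 such stretches in the genome, 23.3% held the PU.1 core, 7.02% the STAT motif, 2.98% the interferon response motif and 13.8% the TCF/LEF core. A match here says only that the letters are present.

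Fcgr1, the receptor that binds monomeric immunoglobulin G with high affinity, was highest in the 3 monocyte and macrophage classes. Its levels at 4, 12 and 20 months were 1388, 1205 and 1287 CPM in the Acod1-led cluster, 910.3, 785 and 881 CPM in macrophage-like cells and 785.5, 666 and 738 CPM in monocyte-like cells. Dendritic cell-like cells stood at 351, 253 and 257 CPM. NK-like cells, at 69.3, 61.5 and 72.0 CPM, and T-like cells, at 73.4, 57.3 and 73.3 CPM, were alike. The macrophage-like level was 12.0 to 13.7 times the T-like level within a library. The Acod1-led cluster lay above the macrophage-like class in every library, by 1.46 to 1.54 times, whereas the ranges of the macrophage-like and monocyte-like classes over the 3 libraries overlapped. After thinning every cell to 1000 counts, 58.0%, 53.1% and 56.1% of macrophage-like cells had an Fcgr1 count, against 6.96%, 5.77% and 7.30% of T-like cells. Unthinned, these shares were 98.6% to 98.9% and 34.0% to 38.6%, at median depths of 8275 to 9116 and 5311.5 to 6263.5 counts per cell.

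Fcgr3, the low-affinity activating receptor of macrophages and NK cells, lay at 771, 714 and 760.3 CPM in macrophage-like cells, above the other 2 classes of that kind in every library. The Acod1-led cluster had 623, 610.2 and 625 CPM and monocyte-like cells 639, 559.6 and 596 CPM, and their ranges overlapped. NK-like cells had 106, 98.1 and 101 CPM. This was 1.60 to 1.78 times the T-like level of 59.9, 55.4 and 63.2 CPM in every library, with no overlap between the 2 classes, and its range overlapped that of dendritic cell-like cells, at 110.3, 98.0 and 106 CPM. Fcgr1, Fcgr4 and Fcgr2b showed no such excess in NK-like cells. Their NK-like to T-like ratios were 0.944 to 1.07, 0.962 to 1.04 and 0.630 to 0.938. Among NK-like clusters, the small one led by the granzyme genes Gzmd and Gzmf had the highest Fcgr3, at 151, 142.5 and 145 CPM, against 105, 96.9 and 101 CPM in the main one.

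Fcgr4, an activating receptor that binds immunoglobulin G2 subclasses, separated the classes more steeply. Macrophage-like cells had 499.7, 412 and 600.4 CPM, the Acod1-led cluster 309, 238.5 and 349.8 CPM and monocyte-like cells 125, 117 and 179.7 CPM. None of these ranges overlapped the next. The macrophage-like level was 3.34 to 3.985 times the monocyte-like one, where the same ratio was 1.16 to 1.19 for Fcgr1 and 1.21 to 1.28 for Fcgr3. In dendritic cell-like cells it was 59.6, 49.3 and 71.9 CPM, 1.79 to 2.03 times the T-like level of 29.4, 27.5 and 40.04 CPM.

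Fcer1g, the shared γ chain, was the member with high levels in both myeloid and NK-like cells. It stood at 3907, 3333 and 3546 CPM in macrophage-like cells, 3461, 2971 and 2924 CPM in the Acod1-led cluster and 2625, 2423 and 2328 CPM in monocyte-like cells. NK-like cells, in which the chain also serves the receptors NKp46 and FcγRIII, had 1955, 1835 and 1673 CPM, above the dendritic cell-like 1410, 1094 and 1032 CPM in every library. T-like cells had 383, 330 and 296 CPM. Thinned to 1000 counts, 84.8%, 83.8% and 80.6% of NK-like cells had an Fcer1g count, against 31.0%, 26.8% and 24.7% of T-like cells. Fcer1g was lower at each later age in 5 of the 6 classes. In macrophage-like cells the 12-month library was the lowest.

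Fcgr2b, the inhibitory receptor, was highest in macrophage-like cells, at 630.1, 644 and 664 CPM. The Acod1-led cluster had 379.6, 401.5 and 408 CPM and monocyte-like cells 186, 224.5 and 229.6 CPM, again with no overlap. The macrophage-like class was 2.87 to 3.39 times above the monocyte-like one. Dendritic cell-like cells had 82.7, 94.6 and 96.7 CPM. NK-like cells had 37.1, 41.1 and 44.8 CPM. T-like cells were at the same level as NK-like cells at 4 months, 39.6 CPM, and stood higher at 12 months, at 47.3 CPM, and at 20 months, at 71.0 CPM.

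Fcgrt was spread unlike the other members, with dendritic cell-like cells highest among the 6 classes at 94.4, 102 and 85.8 CPM. Macrophage-like cells had 44.4, 60.9 and 61.95 CPM, monocyte-like cells 30.02, 32.2 and 29.0 CPM and the Acod1-led cluster 18.0, 24.8 and 23.2 CPM. NK-like cells were lowest, at 7.06, 13.2 and 13.6 CPM. T-like cells had 19.5, 43.1 and 64.1 CPM. At 20 months they stood at 0.966 times the macrophage-like level, against a macrophage-like level 2.27 times theirs at 4 months. These are low levels, and 1.85%, 3.78% and 5.80% of T-like cells thinned to 1000 counts had an Fcgrt count.

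**Figure D1:**
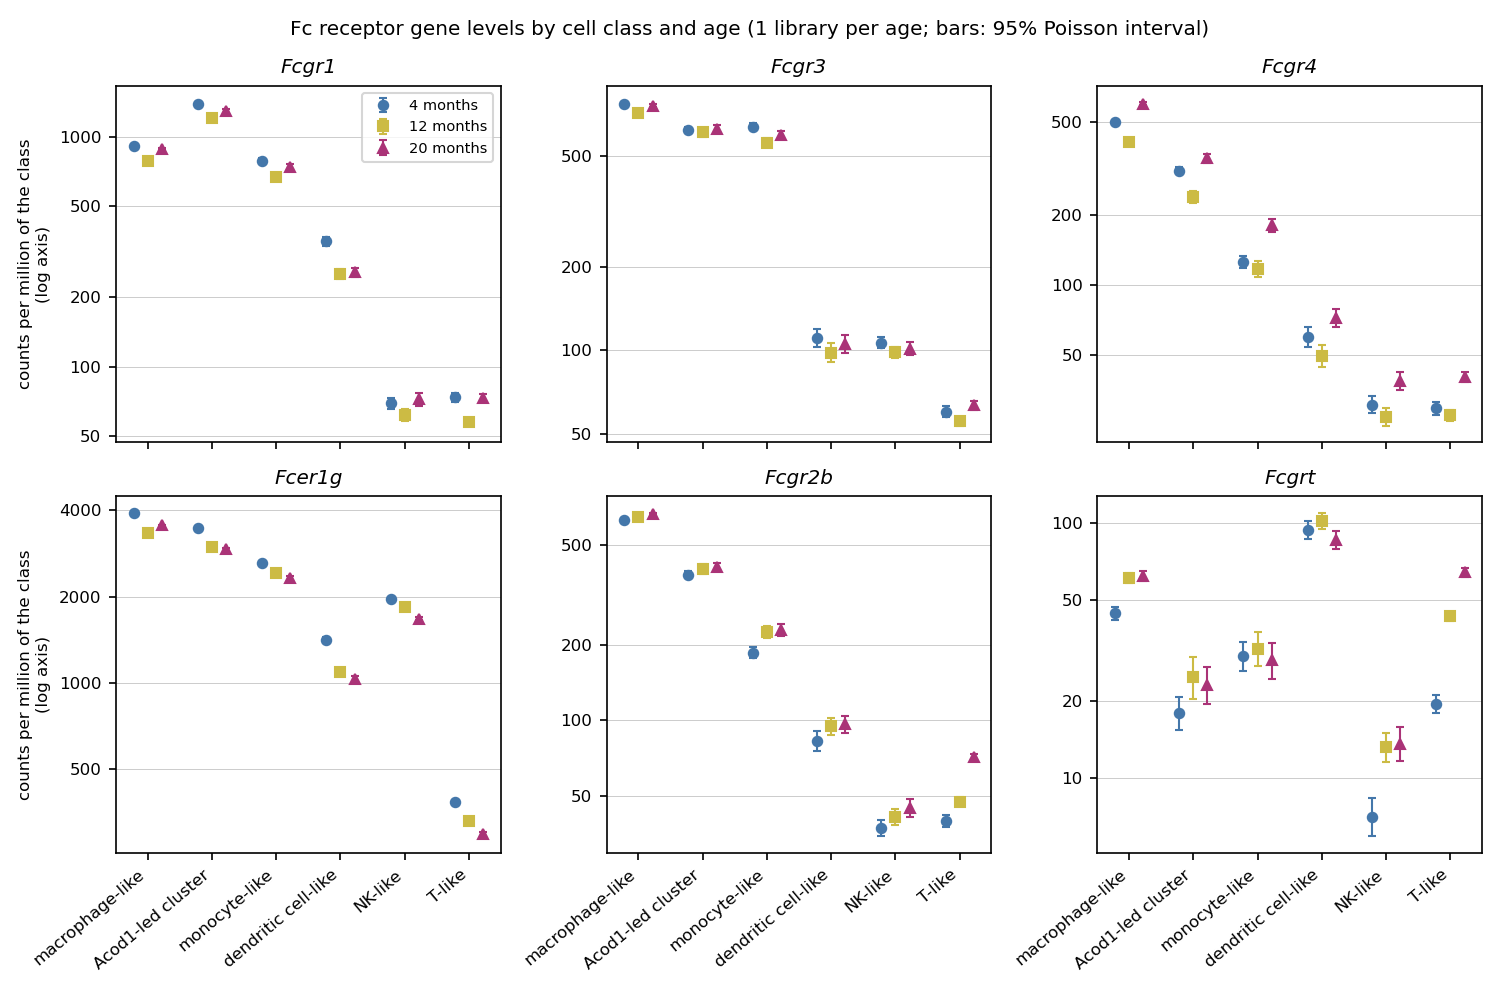
Level of each gene (CPM of the class, log axis) in 6 cell classes at 4, 12 and 20 months, 1 library per age; bars are 95% Poisson intervals. The 3 classes on the left carry Fcgr1, Fcgr3, Fcgr4 and Fcgr2b far above the NK-like and T-like classes, Fcer1g is also high in NK-like cells, and Fcgrt peaks in dendritic cell-like cells.

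Across 27 clusters of at least 50 cells, the genes whose levels followed each member most closely differed between members. This is a description over clusters that share 3 libraries and their free RNA, as Pearson's r of log2(CPM + 10) among 9238 genes. For Fcgr1 they were Ms4a6c, Sirpb1b, Sirpb1c, Sirpb1a and Csf1r, the last being the receptor for the macrophage growth factor M-CSF (r of 0.986 to 0.991). Fcgr2b was followed by Cyp4f18, Dok3, 4930430E12Rik, Gm20547 and Apoe (0.965 to 0.985), and Fcgr3 by Fpr2, Tnfsf13os, Klra2, Pilra and Sirpb1c (0.969 to 0.975). Clec4a2, Ccl12, Pilra, Clec4a3 and Cfb were closest to Fcgr4 (0.977 to 0.986). For Fcer1g the closest was Tyrobp, the DAP12 adaptor that also carries an activation motif (0.936), before Pilrb1, Rnf130, Rnf34 and Hk3. No gene came as close to Fcgrt, for which Rxrb led at 0.768, before Trim41, Ctsl, Cic and 2900097C17Rik. Among the members themselves, Fcgr1, Fcgr3, Fcgr4 and Fcgr2b had r of 0.916 to 0.964 with each other, and Fcgrt had 0.214 to 0.381 with the rest.

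Within the myeloid classes the receptors parted company between sub-clusters, which are named by their leading genes with the 3 libraries summed. Fcgr1 was highest in sub-clusters led by AA467197 and Tgm2 (1316 CPM), by the chemokine genes Cxcl11 and Cxcl9 (1174 CPM) and by S100a8 and Ngp (1146 CPM). It was 305 CPM in monocyte-like cells led by F13a1 and Serpinb10. Fcgr4 was 63.4 CPM there, its lowest among the monocyte and macrophage sub-clusters. It was highest in macrophage-like cells led by Pf4 and Cd81, at 749 CPM, where Fcgr1 was 775.5 CPM, and in the S100a8 sub-cluster it was only 166 CPM. Fcgr2b (879 CPM) and Fcgr3 (1040 CPM) were both highest in macrophage-like cells led by Mmp12 and Arg1. Fcgr2b was lowest among monocyte and macrophage sub-clusters in the S100a8-led one, at 193 CPM, and in the F13a1-led one, at 201 CPM. The S100a8-led one held 724, 296 and 374 cells at 4, 12 and 20 months. Its name comes from the summed libraries and need not describe its 4-month cells, since S100a8 in the monocyte-like class was 19.9 CPM at that age. In nonclassical monocyte-like cells led by Ear1 and Ace, which patrol blood vessels, Fcgr1 was 526 CPM, Fcgr3 424 CPM, Fcgr4 355 CPM and Fcgr2b 270.5 CPM.

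Over the 11 monocyte and macrophage sub-clusters, Fcgr1 was the member that went with the interferon response genes, a list of 10 genes including Isg15, Irf7 and Cxcl10. Pearson's r with their mean log2 level was 0.754 for Fcgr1, against 0.106 for Fcgr4, 0.027 for Fcer1g, −0.105 for Fcgr3, −0.150 for Fcgr2b and −0.627 for Fcgrt. The 3 sub-clusters with the highest Fcgr1 were also the 3 with the highest interferon list, at 9.33 to 9.58 on the log2(CPM + 10) scale. In the others it lay between 7.99 and 8.70. The points are sub-clusters of the same cells in the same 3 libraries, so this is given as a description with no p-value. Sub-clusters led by Gm47854 and Cbfa2t2 came almost wholly from the 12-month library (924 of 973 cells and 798 of 818 cells) and are among the 11.

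**Figure D2:**
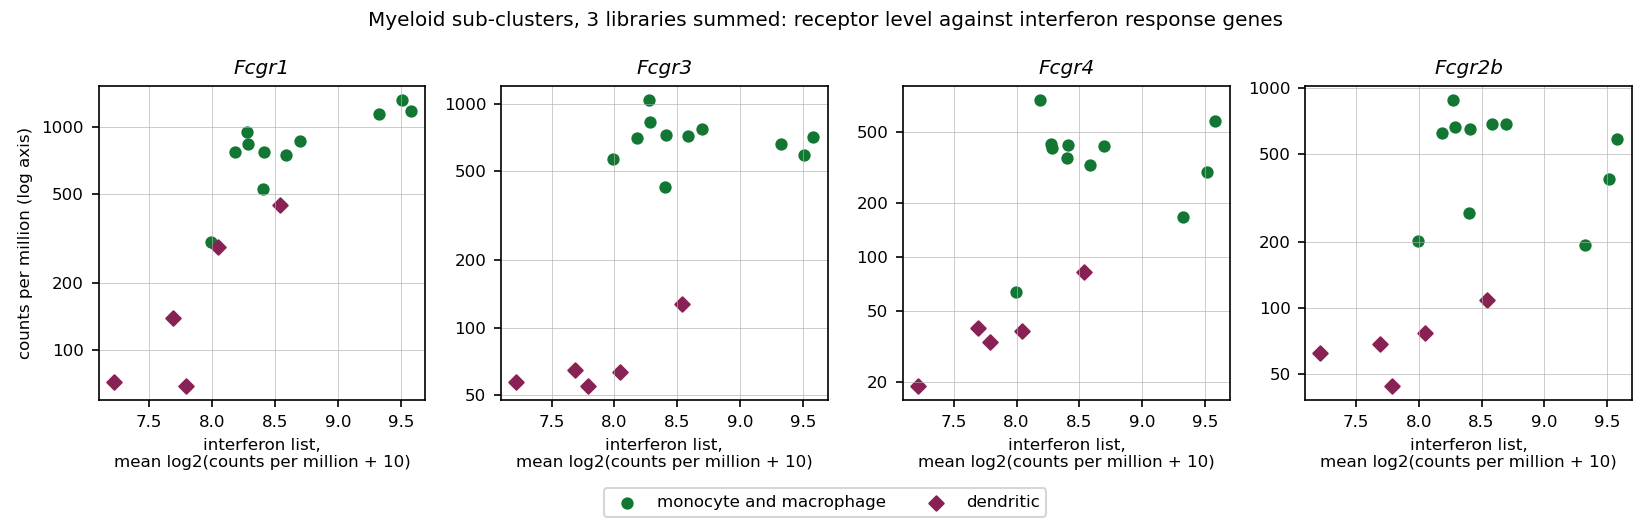
Level of 4 receptor genes (CPM, log axis) against the mean log2(CPM + 10) of 10 interferon response genes in myeloid sub-clusters, the 3 libraries summed; circles are monocyte and macrophage sub-clusters, diamonds dendritic ones. Fcgr1 is highest in the 3 circles with the highest interferon values, whereas Fcgr3, Fcgr4 and Fcgr2b show no such order.

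Dendritic subsets differed from each other. The cDC2-like sub-cluster led by Cd209a carried Fcgr1 at 446 CPM, Fcer1g at 1598 CPM and Fcgr3 at 128 CPM, and the Xcr1-led cDC1-like one, which cross-presents antigen, had 138, 519 and 64.7 CPM. Mature DC-like cells, led by Fscn1 and Ccr7, had Fcgr1 at 69.2 CPM, Fcgr3 at 55.1 CPM, Fcgr4 at 33.6 CPM and Fcgr2b at 44.2 CPM, all at the T-like level. Plasmacytoid DC-like cells, led by Siglech, likewise had no Fcgr1 above T-like cells (72.2 CPM) but had Fcer1g at 966 CPM. Fcgrt was 89.5 to 97.2 CPM in the Xcr1-led, Cd209a-led and Siglech-led sub-clusters and 23.0 CPM in mature DC-like cells. A small sub-cluster of 132 cells led by Cyp7b1 and Apod, which was also named cDC2-like, had the most Fcgrt of all myeloid sub-clusters, 335 CPM (305 to 368.5).

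The comparison of ages, in which 12 and 20 months share the 4-month library, asked how far each member's level in a class changed with the age of the mouse. A gene is called here when its level differs by 1.5 times or more, among genes at 10 CPM or more on average, and all 6 members passed that minimum in each of the 6 classes. In the myeloid classes no ratio reached that threshold. In macrophage-like, Acod1-led, monocyte-like and dendritic cell-like cells 0 of 6 members were called at 20 against 4 months, where 2.74%, 5.09%, 4.90% and 5.43% of all genes were. At 12 against 4 months the count was again 0 of 6, with 3.02%, 5.86%, 5.30% and 4.37% of all genes called. Beside such shares a count of 0 of 6 is near that of genes at large and says nothing particular to the members. At 20 months Fcgr4 in monocyte-like cells was 43.35% higher and Fcer1g in dendritic cell-like cells 26.8% lower, both short of the threshold. In NK-like cells 1 of 6, Fcgrt, was called at both ages, higher each time (2.16% of genes higher and 2.79% in either direction at 20 months; 2.20% and 2.88% at 12 months). It was under 10 CPM there at 4 months, 7.06 CPM, and passed the minimum through the later libraries, at 13.2 and 13.6 CPM. Nothing is therefore read from its being called in this class. Its log2 ratio at 20 months was 0.95 (0.61 to 1.29). T-like cells had 2 of 6, Fcgr2b and Fcgrt, both higher at 20 months (2.05% of genes higher, 3.42% in either direction), and 1 of 6, Fcgrt, at 12 months (2.02% and 2.81%).

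**Figure D3:**
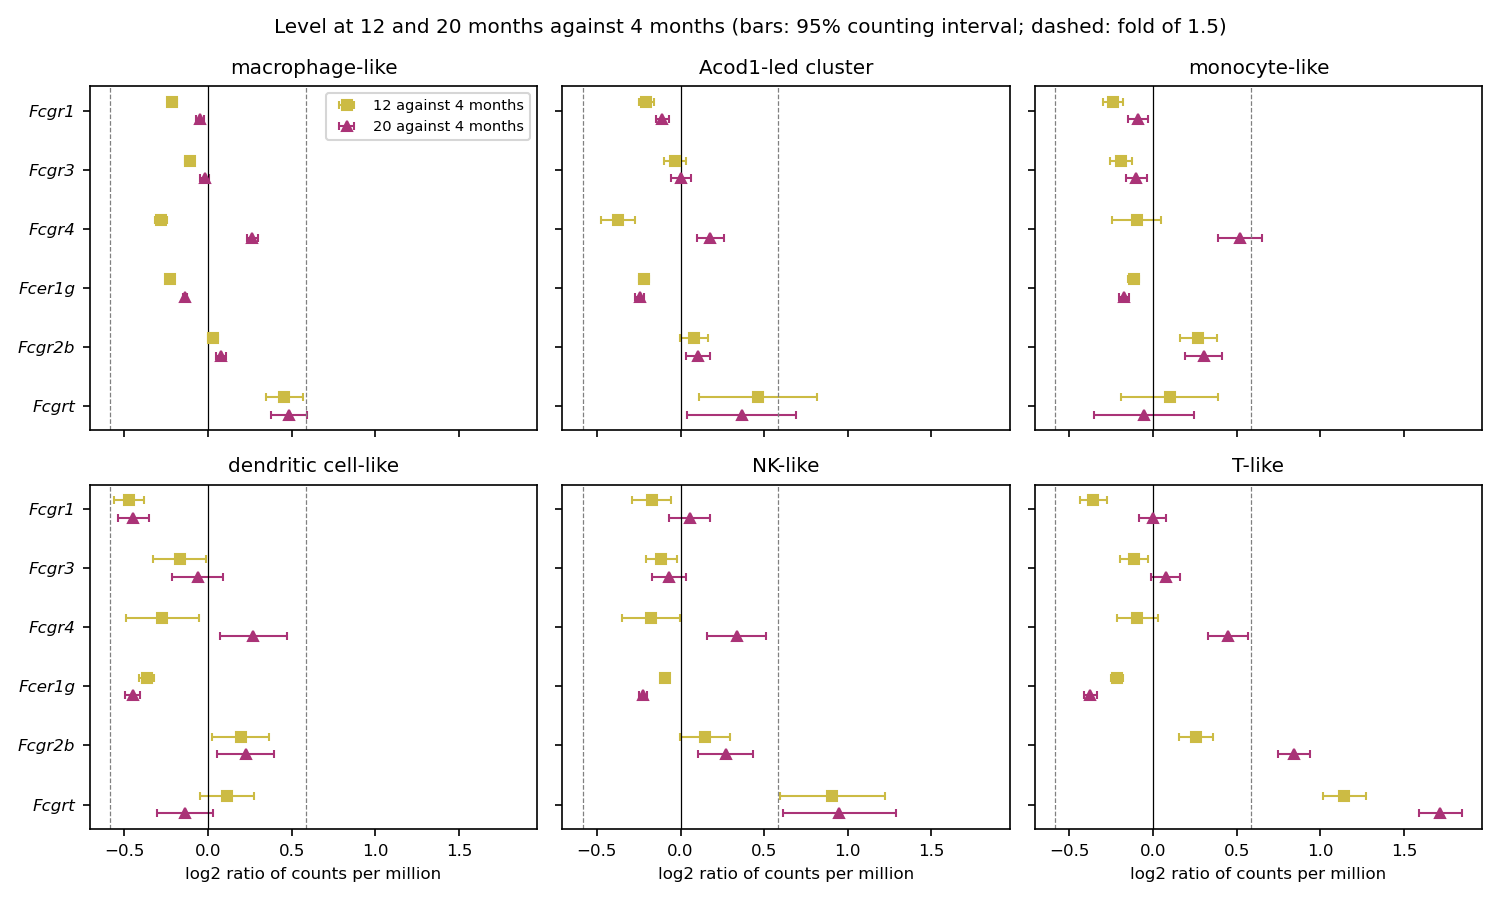
Log2 ratio of each gene's level (CPM) at 12 and 20 months against 4 months in 6 classes; bars are 95% counting intervals and dashed lines mark a fold of 1.5. Myeloid classes stay inside the dashed lines at both ages, and Fcgr2b and Fcgrt in T-like cells at 20 months stand at 0.84 and 1.72.

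In macrophage-like cells Fcgr4 had the largest difference of the 4 genes for immunoglobulin G receptors, 20 against 4 months, with a log2 ratio of 0.26 (0.23 to 0.30). At 12 months it was −0.28 (−0.32 to −0.24), so that the 12-month library was lowest and the 20-month library highest. Fcgr4 was also higher at 20 than at 4 months in the Acod1-led cluster (0.18), in monocyte-like cells (0.52, 0.39 to 0.65) and in dendritic cell-like cells (0.27). It was higher by 0.34 in NK-like cells and by 0.45 in T-like cells too, which had like levels of it. The makeup of the macrophage-like class moved with age. Its cluster led by Pf4 and Ccl7, in which Fcgr4 was 772, 649.5 and 804 CPM, made up 8.88%, 17.3% and 23.3% of the class. The cluster led by Il1b and Cxcl2, at 414.8, 299 and 414.5 CPM, made up 25.5%, 37.7% and 18.3%. In the main cluster led by C1qb and Slamf9 the values were 493, 394 and 561.5 CPM. With the clusters weighted alike in every library the class ratio was 0.11 instead of 0.26.

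**Figure D4:**
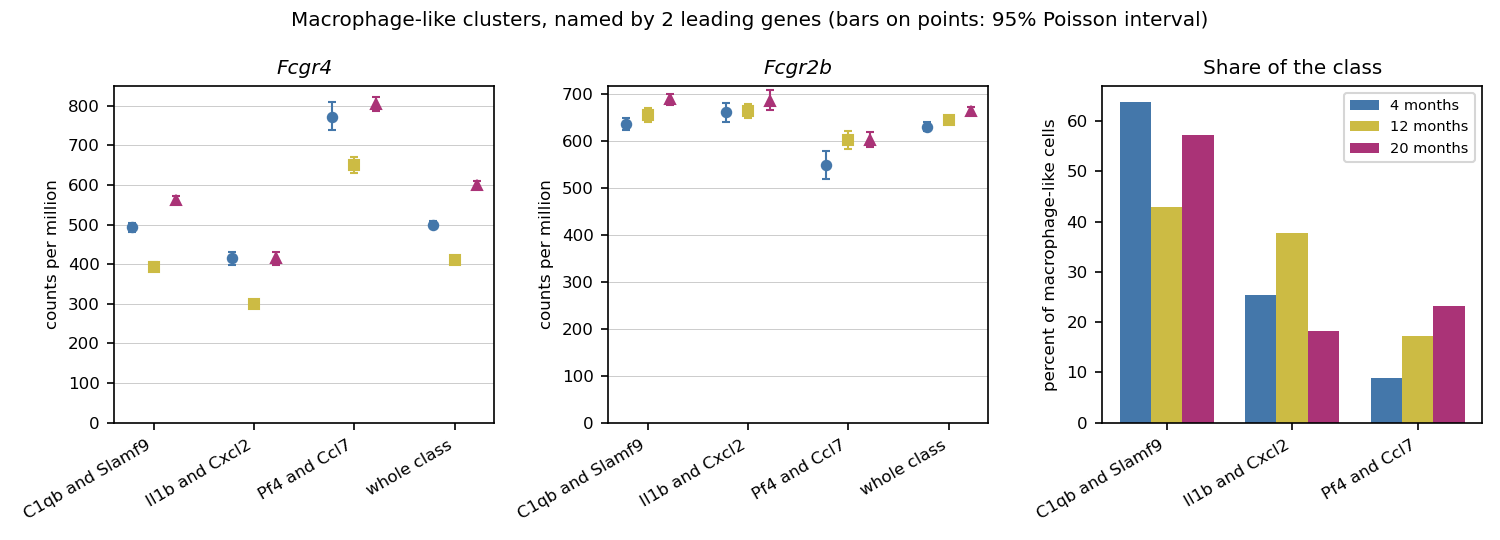
Fcgr4 and Fcgr2b (CPM, bars 95% Poisson intervals) at 3 ages in the 3 large macrophage-like clusters and in the whole class, and each cluster's share of the class. Fcgr4 is highest in the Pf4-led cluster, which grows from 8.88% of the class at 4 months to 23.3% at 20 months, while Fcgr4 within the Il1b-led cluster is 414.8 and 414.5 CPM at those ages.

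Fcgr1 and Fcgr3 in macrophage-like cells differed little between 4 and 20 months, with log2 ratios of −0.05 (−0.07 to −0.02) and −0.02 (−0.05 to 0.01), and both were lower at 12 months (−0.21 and −0.11). Dendritic cell-like cells were the class in which Fcgr1 was lower at both ages by the most, with log2 ratios of −0.47 at 12 months and −0.45 (−0.54 to −0.36) at 20 months. Within their main cluster, led by Cd209a and Wdfy4, Fcgr1 went from 431 CPM at 4 months to 328 CPM and 297 CPM. When the myeloid cells were clustered again, the Cd209a-led cDC2-like sub-cluster held 380, 296 and 393 cells with Fcgr1 at 522, 407 and 407 CPM, a log2 ratio of −0.36 (−0.46 to −0.26) at 20 months. The Xcr1-led cDC1-like one held 92, 94 and 160 cells with Fcgr1 at 171, 132 and 123 CPM. The part of this makeup in the class ratio was not tested. Fcer1g was lower at 20 months in all 6 classes, with a log2 ratio of −0.14 (−0.15 to −0.13) in macrophage-like, −0.24 in Acod1-led, −0.17 in monocyte-like, −0.45 in dendritic cell-like, −0.22 (−0.25 to −0.20) in NK-like and −0.37 in T-like cells. None of these reached a fold of 1.5. Fcgr2b was higher at 20 months in all 6, with log2 ratios of 0.08 in macrophage-like cells (0.05 to 0.11), 0.10 in the Acod1-led cluster, 0.30 in monocyte-like, 0.23 in dendritic cell-like, 0.27 in NK-like and 0.84 in T-like cells. The sign was kept in 9 of 10 other settings in monocyte-like, 8 of 9 in dendritic cell-like and 3 of 4 in Acod1-led cells. The lowest ratios there were −0.56, −0.75 and −0.013. These settings include subtracting the T-like level, itself higher at 20 months. In macrophage-like, NK-like and T-like cells the Fcgr2b ratio stayed positive throughout.

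The balance of activating to inhibitory receptor counts in the same cells does not depend on the class total. In macrophage-like cells there were 3.46, 2.97 and 3.38 counts of Fcgr1, Fcgr3 and Fcgr4 together for each count of Fcgr2b at 4, 12 and 20 months. The Acod1-led cluster had 6.11, 5.11 and 5.54, monocyte-like cells 8.34, 5.98 and 6.595 and dendritic cell-like cells 6.30, 4.23 and 4.496. In all 4 classes the 4-month value was highest and the 12-month value lowest. The 12-month and 20-month counting intervals overlapped in Acod1-led cells (4.86 to 5.38 and 5.31 to 5.79) and in monocyte-like cells (5.63 to 6.37 and 6.20 to 7.02). They also overlapped in dendritic cell-like cells (3.88 to 4.62 and 4.13 to 4.91), so the order of those 2 ages is not settled there. The S100a8 level of the monocyte-like class differed between these libraries, as given above, and its part in the balance of that class was not tested. At 4 against 20 months the intervals overlapped in macrophage-like cells (3.40 to 3.52 and 3.33 to 3.43) and lay apart in monocyte-like cells (7.90 to 8.80 and 6.20 to 7.02). These ratios count 3′ tags of different genes and are not ratios of receptors on the cell.

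T-like cells differed with age in Fcgr2b and Fcgrt. Over the whole class Fcgr2b went from 39.6 to 47.3 and 71.0 CPM, a log2 ratio of 0.84 at 20 months (0.75 to 0.94), and Fcgrt from 19.5 to 43.1 and 64.1 CPM, a log2 ratio of 1.72 (1.59 to 1.85). Fcgrt was higher at 20 months in macrophage-like cells too, by 0.48 (0.38 to 0.59). Its NK-like ratio is not counted as a further case, because it passed the minimum there through the later libraries. The highest levels of both genes at 20 months were in a sub-cluster led by Gzmm, Dapl1 and Ccr7, among those with at least 50 cells in every library; it held 456, 244 and 1921 cells. It had Cd8a at 551 to 627 CPM, Cd4 at no more than 18.4 CPM, and the transcription factor gene Lef1 at 103 to 127 CPM, above the T-like class as a whole. Its Fcgr2b was 40.1, 55.03 and 113 CPM and its Fcgrt 37.1, 100.3 and 138 CPM. The log2 ratios at 20 months were 1.49 (1.23 to 1.77) and 1.90 (1.62 to 2.19), and the intervals of the 4-month and 20-month levels did not overlap. Of the 6 members, 2 were called higher there at 20 months, where 3.59% of genes were, and 1, Fcgrt, at 12 months, where 4.49% were. With the 3 libraries summed, Fcgrt, which was left out of the clustering, was among the 10 genes that most set this sub-cluster apart. Of its 2621 cells 1921 came from the 20-month library, so this ranking is no separate result from the 20-month level. At 4 months Fcgrt in the sub-cluster was below that in the one led by Ifitm1 and Gzma, given below.

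Thinned to 1000 counts, 3.29% (1.85 to 5.37), 4.92% and 11.2% (9.82 to 12.7) of these cells had an Fcgr2b count and 2.41%, 7.79% and 12.6% an Fcgrt count. Unthinned, the shares were 21.5%, 30.3% and 46.8% for Fcgr2b and 16.9%, 41.0% and 53.5% for Fcgrt, at median depths of 5922, 6726.5 and 6230.0 counts. Fcgr1, whose level was alike in NK-like, T-like and mature DC-like cells, was 73.2, 55.6 and 75.5 CPM in the sub-cluster and did not follow Fcgr2b. The summed level of 10 macrophage markers moved from 554 to 723 and 1019 CPM in the sub-cluster, none of them at 0. In NK-like cells it was 536, 720 and 1021 CPM, and there Fcgr2b was 37.1, 41.1 and 44.8 CPM and Fcgrt 7.06, 13.2 and 13.6 CPM. The part of macrophage RNA in the values of the sub-cluster was not tested. The 8 B cell markers, whose cells express Fcgr2b, summed to 47.1, 63.6 and 37.0 CPM in the sub-cluster, with 2, 0 and 0 of them at 0. Among its 20-month cells, 83.2% of those with an Fcgr2b count and 78.3% of those without had a count of C1qa, at median depths of 6478.5 and 6042 counts. The first-level cluster led by Dapl1 held 1074, 1861 and 2090 cells, and in it Fcgr2b was 39.2, 54.3 and 107 CPM and Fcgrt 24.6, 72.6 and 130.2 CPM. It is wider than the sub-cluster. Its leading genes Nsg2, Ifngas1 and Ccr7 were also among those of the sub-cluster led by Klra6 and Klra7, which held 570, 1554 and 224 cells. The part of a changing cell mix in its values was not tested.

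Outside this sub-cluster the T-like ratios were smaller, 0.38 for Fcgr2b and 0.75 for Fcgrt at 20 months. They were also smaller where other processing left most of these cells out of the named T-like class. With cells of over 5% mitochondrial counts left out, 14.9% of the 4-month, 11.1% of the 12-month and 12.1% of the 20-month cells of the sub-cluster stayed in it, and the class ratios were 0.37 and 0.64. Without doublet removal, at the coarser resolution of 0.5 and with each library clustered separately the Fcgr2b ratio was 0.36 to 0.40 and the Fcgrt ratio 0.64 to 0.71. In these 4 settings, and without the sub-cluster, Fcgr2b in the T-like class was thus no longer past a fold of 1.5, while Fcgrt was. At resolution 2.0 the class kept 26.75% of the 4-month, 43.85% of the 12-month and 76.4% of the 20-month cells of the sub-cluster, and the ratios were 0.86 and 1.60. Fcgrt was low in regulatory T-like cells, led by Tnfrsf4 and Penk, with 8.07, 13.3 and 16.0 CPM, and in a sub-cluster led by Rgs16 and Klrh1, with 7.88, 13.2 and 14.5 CPM. Their Fcgr2b, 34.2, 41.25 and 49.1 CPM and 35.9, 39.5 and 43.15 CPM, was close to the NK-like level at every age. A sub-cluster led by Ifitm1 and Gzma had Fcgrt at 62.4, 80.4 and 56.4 CPM, with no rise from 4 to 20 months. A sub-cluster of the class led by the NK receptor genes Klra6 and Klra7, which by its markers was named NK-like when the class was clustered again, was held mostly by the 12-month library (1554 of 2348 cells). Its Fcgrt was 11.3, 68.6 and 52.6 CPM. Its Fcer1g was the highest at 4 and 20 months among sub-clusters of over 1000 cells in the class, at 564, 394 and 484 CPM against 357, 299 and 292 CPM in regulatory T-like cells. A sub-cluster led by Cbfa2t2 and Gm47854 came almost wholly from the 12-month library (1669 of 1705 cells), so its ages are not compared. These genes also led the myeloid sub-clusters given above as almost wholly of that library. They thus mark the 12-month library in both T-like and myeloid cells. With 1 library per age, a difference of that library cannot be told apart from one of age.

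**Figure D5:**
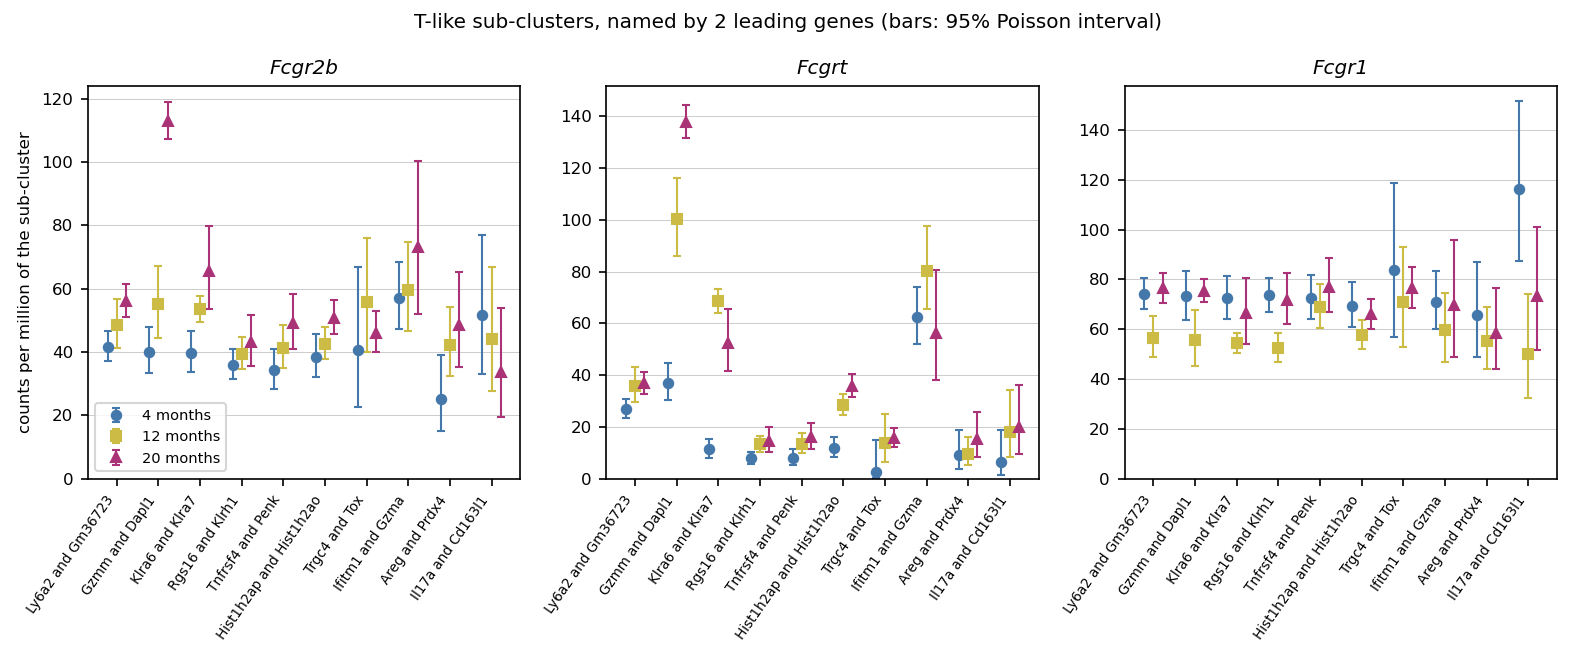
Fcgr2b, Fcgrt and Fcgr1 (CPM, bars 95% Poisson intervals) at 3 ages in sub-clusters of the T-like class with at least 50 cells in every library, each named by 2 leading genes. The sub-cluster led by Gzmm and Dapl1 reaches 113 CPM of Fcgr2b and 138 CPM of Fcgrt at 20 months, while Fcgr1 there is 73.2, 55.6 and 75.5 CPM.

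Genes that act with the receptors were looked at as lists, each read against the shares of all genes called above. Of the 21 genes of activating signalling behind Fc receptors, among them Syk, Lyn, Btk and Vav1, 21 were measured in macrophage-like cells, and 0 were called at 20 months, with a median log2 ratio of −0.02 beside −0.03 over all genes. Rac2, a small GTPase of phagocytosis and the highest of the list, had 435, 455 and 460 CPM. Syk itself had 56.1, 59.2 and 62.3 CPM. The count was also 0 of 20 in monocyte-like, 0 of 21 in dendritic cell-like and 0 of 18 in NK-like cells. In T-like cells it was 1 of 16, Lat2, lower at 20 months, and in the Acod1-led cluster 1 of 21, also lower. Of the inhibitory effectors, which include Inpp5d, the gene of SHIP1, 0 of 6 were called in macrophage-like cells. Their median was −0.20, and Ptpn6, the phosphatase SHP-1 and highest of the list, had 393, 360 and 320 CPM. In monocyte-like cells the same list had a median of 0.18 with 0 of 6 called. In the Acod1-led cluster 1 of 6 was called, lower, where 5.09% of all genes were called. None was called in dendritic cell-like, NK-like or T-like cells.

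None of the 3 other signalling adaptors listed was called at 20 months in any of the 6 classes. Tyrobp, the highest, had 2146, 1914 and 2015 CPM in macrophage-like cells and 2774, 2571 and 2418 CPM in NK-like cells. Of the 5 measured receptors that pair with the γ chain besides the Fc receptors, 1 was called in macrophage-like and 1 in monocyte-like cells. It was Ncr1 in both, lower at 20 months, at 43.6, 40.2 and 21.85 CPM and at 42.45, 39.2 and 23.0 CPM. Ncr1 was called lower in T-like, dendritic cell-like and Acod1-led cells as well. In the Acod1-led cluster 2 of 5 genes of this list were called, both lower, where 5.09% of all genes were called. Ncr1 encodes the NK receptor NKp46. In NK-like cells it was 747, 721 and 662 CPM, and their share of retained cells was 16.6%, 15.01% and 11.5%. The part of free NK cell RNA in the macrophage-like and monocyte-like values was not tested. Clec4n (Dectin-2) was the highest of this list in macrophage-like cells, at 184, 161 and 151 CPM. B2m, the partner chain of FcRn, had 14590, 13220 and 13650 CPM in macrophage-like cells, and its log2 ratio at 20 months was −0.15 to −0.09 over the 6 classes.

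Interferon response genes, some of which share inducers with Fcgr1, had a median log2 ratio at 20 months of −0.23 in macrophage-like, −0.40 in monocyte-like, −0.47 in dendritic cell-like, −0.33 in NK-like and −0.29 in T-like cells. Of 10 genes, 0 were called in macrophage-like, NK-like and T-like cells, 1 in monocyte-like cells (Ifit3, at 1571, 1088 and 982 CPM) and 2 in dendritic cell-like cells (Ifit3 and Cxcl10). Isg15 was the highest in macrophage-like cells, at 1762, 1466 and 1399 CPM. The immunoglobulin genes encode the ligands. Of 10 immunoglobulin genes, 2, Ighm and Igkc, were measured in macrophage-like cells. Igkc, the κ light chain, had 4.53, 3.69 and 3.48 CPM in macrophage-like, monocyte-like and NK-like cells at 4 months and 6.89, 7.34 and 7.04 CPM at 20 months, with 27.9 to 33.1 CPM at 12 months. It was under 10 CPM in these classes at both 4 and 20 months and passed that minimum through the 12-month library alone, so nothing is read from its ratio of 1.5 times or more. Ighm was the highest of the list, at 195, 240 and 235 CPM in macrophage-like cells. Of 12 other Fc receptor genes, 2 were measured in macrophage-like cells, Fcrl5, an Fc receptor-like gene of B cells, at 22.45, 15.8 and 21.5 CPM, and Trim21, a cytosolic antibody receptor, at 12.4, 13.6 and 11.25 CPM, and neither was called.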

How the data were processed

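Single-cell RNA libraries of sorted CD45+ cells from melanoma grafts were compared, 1 per age (4, 12 and 20 months). The authors deposited raw counts per gene and cell barcode. STAR 2.7.10a and GRCm38 are named in the submitters' processing notes without their roles. The counting program, strand use, cell calling and whether counts are molecules or reads are not given in the sources used here.

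A minimum of 500 counts and a limit of 15% mitochondrial counts per cell left out 2 cells. The 6% of cells per library with the highest Scrublet scores were left out as doublets, 863, 879 and 881 cells. The 13528, 13774 and 13803 retained cells were clustered together with scanpy 1.11.5 and leidenalg 0.10.2 (2000 variable genes, 30 components, 15 neighbours, resolution 1.0), without the 6 members and the genes of 8 pathway lists. Clusters were named from 22 marker lists, in which 1 of 166 symbols matched no gene. The naming rule was set after the clusters were seen. It asked for a score of at least 0.4, at least 3 markers each in 10% of cells and at least 50 cells. Among the top 10 genes, its own markers could not be outnumbered by those of a different class. In first-level clusters the score of another lineage could not exceed 0.6 of the cluster's own. The cluster led by Dapl1 had a T-like score of 0.716 and a highest score of 0.402 for another lineage. Names were rebuilt here and may differ from the authors' own. The T-like and the myeloid cells were then clustered again.

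Counts were summed per class and library and divided by the class total. Levels have exact Poisson intervals, ratios of levels intervals from the exact binomial split of the counts, and shares of cells thinned to 1000 counts exact Clopper-Pearson intervals, all at 95%, from scipy 1.17.1. They cover counting error only. With 1 library per age no test was made. Genes at 10 CPM or more, as the mean of the 3 libraries, counted as measured, and a fold of 1.5 or more as called. All members are named. Of the lists, those genes are named that were called at 20 against 4 months in macrophage-like, monocyte-like or NK-like cells, and the highest of each list in macrophage-like cells. Syk, Lat2, Cxcl10 and Trim21 were named after their values were seen. The steps were checked on simulated counts. TMM factors of edgeR 4.0.16 served as 1 alternative. The members and lists were chosen with earlier results of these data known. Of the 55401 listed gene IDs, 54349 (98.1%) are in GENCODE M21, from which positions were taken. Promoter sequences are from RefSeq on GRCm38.p6, matched for 6 of the 6 members.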

Additional observations from a re-analysis of the deposited data

Results flagged for a closer look

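Small clusters outside the 6 classes compared held counts of some receptor genes above the T-like level, which is given beside each. For Fcgr2b and Fcgrt the T-like value takes in the sub-cluster led by Gzmm and Dapl1 and is no measure of free RNA. NK-like cells had 7.06 to 13.6 CPM of Fcgrt and 37.1 to 44.8 CPM of Fcgr2b in single libraries. All other values are over the 3 libraries summed, and their intervals cover counting error only. In 127 cells led by Mgp and Apod, which scored highest for fibroblast markers, Fcgrt was 163.4 CPM (144 to 185) against 44.2 CPM in T-like cells. In 72 cells led by Igkc and Gm30211, which scored highest for B cell markers, Fcgr2b, the only classical immunoglobulin G receptor of B cells, was 218.4 CPM (183 to 258) against 53.4 CPM. A cluster of 44 cells led by the protease genes Mcpt2 and Tpsb2, with mast cell or basophil markers, had Fcgr3 at 384.6 CPM (327 to 449) against 59.2 CPM and Fcer1g at 1870 CPM (1741 to 2006) against 332 CPM. A cluster of 17 cells led by S100a9 and S100a8, with neutrophil markers, had Fcgr1 at 231.1 CPM (151 to 339) against 66.9 CPM. Its Fcgr3 was 524.5 CPM (399 to 677) against 59.2 CPM, its Fcgr4 222.2 CPM (144 to 328) against 32.2 CPM and its Fcer1g 1769 CPM (1532 to 2033) against 332 CPM. The last 2 clusters are under 50 cells and were left unnamed.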

How the results depend on the processing

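No paired analysis was possible because each age has 1 library. The log2 ratios at 20 against 4 months on which the text rests most moved beyond their counting interval as follows, and no called ratio reversed in the settings run. In macrophage-like cells, clustering each library separately gave Fcgr1 −0.0051, Fcgr4 0.0965 and Fcer1g −0.22, and weighting the clusters alike gave Fcgr1 −0.0162, Fcgr2b 0.11, Fcgr4 0.11 and Fcer1g −0.20. Subtracting the T-like level gave Fcgr2b 0.0061 and Fcer1g −0.12 in macrophage-like cells, Fcgr1 −0.59 in dendritic cell-like cells and Fcer1g −0.19 in NK-like cells. T-like Fcgr2b was itself higher at 20 months (39.6 and 71.0 CPM), so the subtracted Fcgr2b value is not used. In T-like cells Fcgr2b and Fcgrt were 0.40 and 0.71 without doublet removal, 0.36 and 0.64 at resolution 0.5, 0.3959 and 0.64 with each library clustered separately and 0.37 and 0.64 with at most 5% mitochondrial counts. In these 4 settings the share of the cells of the sub-cluster led by Gzmm and Dapl1 that was still named T-like was 9.43% to 21.3%. Without that sub-cluster, an alternative chosen after seeing the data, they were 0.38 and 0.75. T-like Fcgrt was 1.58 with every cell weighted alike and 1.54 with clusters weighted alike. In the sub-cluster itself, Fcgrt was 2.35 without its 10 highest cells per library and 2.40 in the first-level cluster, both chosen after seeing the data. In the first of these, 10 cells are a larger share of the 456 cells at 4 months than of the 1921 at 20 months, which raises the ratio by construction, so nothing is drawn from it. The first-level cluster also holds other cells, whose part in its ratio was not tested. Over both ages and all classes run, TMM scaling moved 17 of 72 ratios and gave 4 the other sign. The counts were 22 of 60 and 7 with separate clustering, 16 of 60 and 1 at resolution 0.5, 14 of 60 and 2 without doublet removal, 13 of 60 and 2 at 5% mitochondrial counts and 9 of 60 and 2 at resolution 2.0. They were 13 of 72 and 0 with clusters weighted alike, 13 of 46 and 4 with the T-like level subtracted, 6 of 76 and 2 with every cell weighted alike, and 7 of 12 and 1 for monocyte-like cells joined with the Acod1-led cluster. With 1 library per age, the spread between mice was not measured, and genes near the free RNA level cannot be assigned to a class at this depth.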

Other observations

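Other receptors for antibodies are given here over the 3 libraries summed. Fcer1a, the immunoglobulin E-binding chain of the high-affinity receptor that shares the γ chain with the members above, was 3192 CPM (3023 to 3369) in the 44 cells with mast cell or basophil markers and 1.10 CPM in T-like cells. Ms4a2, its β chain, was 495 CPM and 0.271 CPM in the same cells. Fcmr, the receptor for immunoglobulin M, was 156 CPM in the B-like cluster and 0.296 CPM in T-like cells. Fcrl5 was 90.85 CPM in the B-like cluster, 19.8 CPM in macrophage-like and 8.31 CPM in T-like cells. Fcrl6 was 18.0 CPM in NK-like cells against 1.75 CPM in T-like cells, and Fcrls was 10.25 CPM in macrophage-like cells against 0.895 CPM in T-like cells.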
